A study of Drosophila melanogaster with 3 samples.

Results

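The regions described here are intronic binding sites of a tagged Empty spiracles (Ems) protein that lie far from any promoter. Of the 3866 summits, the highest points of the peaks, in the optimal list that the authors derived from all 3 replicates, 646 (16.7%) were kept. Each lay inside a protein-coding gene, in no exon of any gene, and more than 2000 bp from the nearest transcription start site (TSS) of a protein-coding gene; they are called far intronic summits below. The rule used positions only; peak strength, presence in the replicates and sequence were not used by it. The nearest members inside the limit were 3 summits 2009 bp from a TSS, and the nearest outside it lay at 1993, 1992 and 1985 bp. The data were chromatin immunoprecipitation followed by sequencing (ChIP-seq) peak lists from whole Drosophila melanogaster embryos of strain 16T-GFP, aged 0 to 24 hours, with males and females pooled. All of them carried an insertion that makes Ems with green fluorescent protein fused to its C terminus, and they formed 1 group of 3 biological replicates of this single line. A field of the labels names an antibody against the tag and another names ems itself. A control library was not analysed here, and without read counts the depth of the replicates is unknown; intervals cover counting error only.

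Ems, a transcription factor with a homeodomain, acts in forming the anterior head and its neuroblasts, the tracheal pits and the filzkörper of the posterior spiracles. Homeodomain proteins bind short sites around a TAAT core, and in flies many of the sequences that regulate developmental genes lie in long introns, well away from the promoter. A ChIP-seq peak marks DNA recovered with the antibody, bound directly or through another protein, and in whole embryos it averages over all cells and stages.

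Sequences around 6 of the strongest of these summits are shown first because they hold the 7-base sequences described at the end. They are the windows, 130 bp to each side, of the 6 highest-ranked far intronic summits that were matched in all 3 replicates and hold at least 1 of 4 cores within 100 bp; the arm whose sequence is not shown was left out. The bases are those of the RefSeq reference genome of the same assembly as dm6, printed 5′ to 3′ on the forward strand. Capitals mark 4 cores on either strand: core 1 is CTCAGTG, core 2 is CAGTGTA, core 3 is CAGTGCA and core 4 is CCACTGT. The summit is the middle base of each run.
Tlk, summit ranked 29, dm6 chrX:3742103-3742363: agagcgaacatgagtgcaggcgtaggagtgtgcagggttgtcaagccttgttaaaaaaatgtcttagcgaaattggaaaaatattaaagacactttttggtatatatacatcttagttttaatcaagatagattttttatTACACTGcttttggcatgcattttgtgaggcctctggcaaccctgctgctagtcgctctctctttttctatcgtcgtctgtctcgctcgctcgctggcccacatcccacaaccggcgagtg
Gug, summit ranked 69, dm6 chr3L:8458201-8458461: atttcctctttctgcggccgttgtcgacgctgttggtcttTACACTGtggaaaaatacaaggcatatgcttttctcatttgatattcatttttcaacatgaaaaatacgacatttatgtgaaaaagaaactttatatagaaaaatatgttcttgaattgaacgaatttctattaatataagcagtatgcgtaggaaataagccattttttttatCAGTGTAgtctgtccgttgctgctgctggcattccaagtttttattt
CG34417, summit ranked 127, dm6 chrX:6549734-6549994: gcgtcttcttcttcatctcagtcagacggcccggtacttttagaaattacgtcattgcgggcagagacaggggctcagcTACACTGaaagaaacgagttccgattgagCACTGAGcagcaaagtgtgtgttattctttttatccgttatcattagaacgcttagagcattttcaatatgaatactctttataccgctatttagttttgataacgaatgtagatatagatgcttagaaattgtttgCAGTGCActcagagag
mnb, summit ranked 139, dm6 chrX:17880322-17880582: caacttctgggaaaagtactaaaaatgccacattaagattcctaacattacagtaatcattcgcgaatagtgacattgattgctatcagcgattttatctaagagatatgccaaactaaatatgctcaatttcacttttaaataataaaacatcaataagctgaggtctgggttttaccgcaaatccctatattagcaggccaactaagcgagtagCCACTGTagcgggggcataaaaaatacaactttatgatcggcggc
aos and CG33158, summit ranked 189, dm6 chr3L:16480442-16480702: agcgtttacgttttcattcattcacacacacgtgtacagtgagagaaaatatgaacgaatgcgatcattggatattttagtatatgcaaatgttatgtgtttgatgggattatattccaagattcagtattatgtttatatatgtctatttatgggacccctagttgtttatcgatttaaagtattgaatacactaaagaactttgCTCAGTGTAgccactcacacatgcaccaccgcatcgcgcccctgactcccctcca
Hr4, summit ranked 194, dm6 chrX:1963795-1964055: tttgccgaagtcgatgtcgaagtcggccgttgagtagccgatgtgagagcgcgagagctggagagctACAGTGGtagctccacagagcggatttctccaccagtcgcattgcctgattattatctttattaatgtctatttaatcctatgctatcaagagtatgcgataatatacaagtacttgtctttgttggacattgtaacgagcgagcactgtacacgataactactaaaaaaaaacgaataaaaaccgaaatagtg

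The 6 windows hold 10 sites of the cores, counting both cores of the overlapping run at aos. In 9 of them the core, read 5′ to 3′, points away from the summit, and in 1, that at Tlk, it points towards it. The windows at Gug and CG34417 have such outward sites on both sides of the summit, and the other 4 have sites on 1 side only.

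Far intronic summits were frequent in every replicate but seldom among the strongest peaks. With the same rule applied to the 3866 highest-signal peaks of each replicate, as many as the optimal list holds, 570 summits (14.7%) were far intronic in replicate 1, 657 (17.0%) in replicate 2 and 638 (16.5%) in replicate 3, or 16.1% ± 1.18 (SD, n = 3). Replicate 1 was the lowest, and its far intronic share was below that of the optimal list by more than the SD over replicates. Promoters (within 500 bp of a TSS) held 54.7% of optimal summits, introns within 2000 bp of a TSS, called near intronic here, 12.7% and intergenic sequence 11.8%. Ranked by the authors' signal, the far intronic summits ran from rank 29 to rank 3865 with a median of 2075. Of the 100 highest-signal peaks 4 were far intronic, 19 near intronic, 7 intergenic and 66 at promoters. Across 5 groups of the optimal list of about equal size, from the highest signal down, the far intronic share was 12.3%, 17.1%, 19.0%, 17.7% and 17.4%.

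An optimal peak was called matched in a replicate when it shared at least 1 bp with any of that replicate's 3866 highest peaks. Of the 646, 480 (74.3%) were matched in replicate 1, 548 (84.8%) in replicate 2 and 562 (87.0%) in replicate 3. In all 3 it was 392, or 60.7% (exact 95% binomial interval 56.8 to 64.5), and 6 were matched in none. Matched shares are not independent of the optimal list, which was made from these replicates. The share matched in all 3 was lower than for near intronic summits, 69.3%, a difference of -8.63 percentage points (two-sided Fisher exact test, adjusted p = 0.00991 over 6 tests). It was lower than for promoter summits, 66.8%, with a difference of -6.10 points (exact test, adjusted p = 0.00991), and was 3.66 points above that of intergenic summits, 57.0%, without passing the test (exact test, adjusted p = 0.237). Without replicate 1 the first of these differences was -5.01 points and the other -4.01 points, and neither passed the test (exact test, adjusted p = 0.0578 for both). Replicate 1 matched the fewest far intronic peaks of the 3.

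The matched share followed signal. Among far intronic summits it was 100% in each of the 2 groups of highest signal, 76.9% in the next, then 33.6% and 4.44%. Promoter summits ran from 99.6% and 97.1% to 78.5%, 38.3% and 9.77%, and near intronic summits from 100% and 98.1% to 83.7%, 48.1% and 8.91%. Fewer far intronic summits were among the 1933 optimal peaks of higher signal: 47.1%, against 55.5% of near intronic (two-sided Fisher exact test, adjusted p = 0.00991) and 52.5% of promoter summits (adjusted p = 0.0257); intergenic summits stood at 40.8% (adjusted p = 0.0508). When only peaks matched in 2 of the replicates were compared, leaving out each replicate in turn, the differences from near intronic summits were between -5.85 and -3.18 points and those from promoters between -3.14 and -1.17 points, and none passed the test. Peaks, not embryos, are the units of these tests, so the p-values measure spread between peaks.

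**Figure D1:**
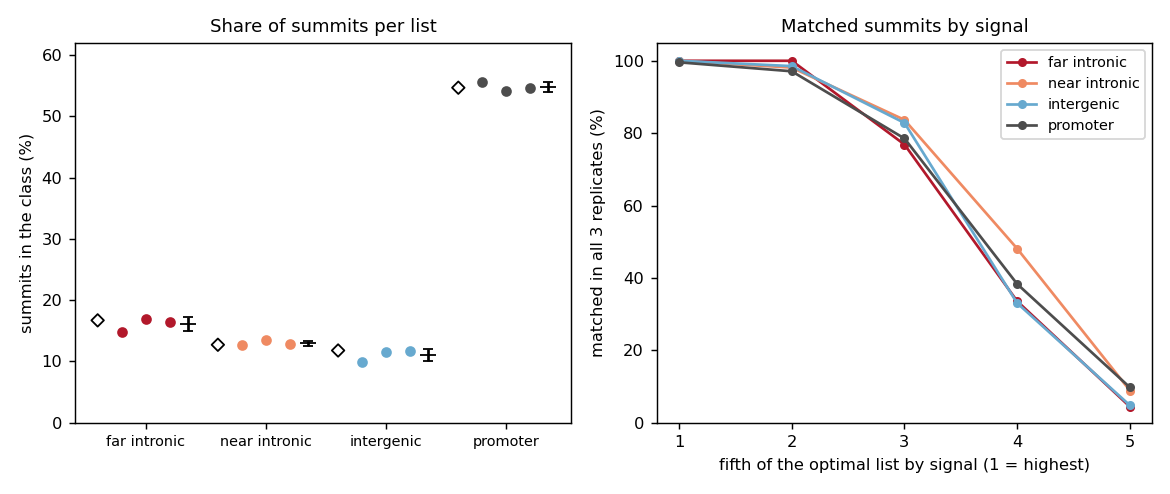
Left, share of summits in each class (percent): open diamonds are the optimal list, filled points replicates 1 to 3 from left to right, and bars the mean ± SD of the 3. Right, share of optimal summits matched in all 3 replicates (percent) in 5 groups ordered by signal, in which the far intronic line falls from 100% to 4.44%.

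Hosts of the strongest far intronic summits had varied roles, with genes for kinases, transcription factors and chromatin proteins among them, and no theme was tested. The highest, on X from 3742052 to 3742380 of dm6, lay with its summit 2336 bp from the start of Tlk, which encodes Tousled-like kinase, a kinase acting in chromatin assembly. It lay in a first intron and ranked 29 in the optimal list and 35, 33 and 26 in replicates 1, 2 and 3, so no replicate placed it far from the others. The next, on 3L from 3060661 to 3060939 in CG32486, ranked 57 (51, 78 and 51 in the replicates). A summit in Gug (3L, 8458173 to 8458485), which encodes the Atrophin corepressor, ranked 69 (68, 67 and 75), 7683 bp from the TSS. These 3 kept nearly the same rank in all replicates.

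Raf, which encodes the kinase that links Ras to the MAP kinase cascade, held 2 of the 25 highest far intronic summits. They were 2240 and 5250 bp from its TSS (X, 2297573 to 2297853 and 2300592 to 2300829) and ranked 76 (59, 83 and 79) and 173 (116, 203 and 213). Hr4, a nuclear receptor gene of the ecdysone response, held 3, ranked 125, 179 and 194, at 9994, 5829 and 21985 bp from its TSS. In the replicates the first of these ranked 117, 169 and 114. Hr3, another nuclear receptor of that response, shares its intron with CG12912 and CG46321, and the summit there ranked 152 (251, 116 and 161). In that locus the gene cannot be told from position alone.

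Other hosts among the 25 were mnb, which encodes the protein kinase Minibrain (rank 139), upSET, a chromatin regulator (135), and Pits, a partner of transcriptional corepressors (157). Then came Lrch, for a cytoskeletal protein (149), aos, for the secreted inhibitor of the epidermal growth factor receptor (189), eff, for a ubiquitin-conjugating enzyme (233), and fz, for the Frizzled receptor of planar polarity and Wnt signals (239). A summit at rank 259 lay in both Mi-2, the ATPase of a nucleosome remodelling complex, and Su(Tpl), an elongation factor gene. The others were in Btk, a tyrosine kinase gene (266), Pak3, a kinase acting on the cytoskeleton (279), CHES-1-like, a forkhead factor gene (294), beat-Ib, a gene of a family of axon guidance proteins (297), CG12769 (102), CG34417 (127), babos (270) and lili (277). In 21 of the 25 the nearest TSS was that of the host. None of the 25 ranked below 435 in any replicate, and no far intronic summit above the last of them was unmatched in any replicate.

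Far intronic summits were densest at the near end of their range. Eligible sequence, the bases where a summit would count as far intronic, came to 38.56 Mb (28.8% of the 133.9 Mb of the chromosome arms) and held 16.8 summits per Mb (exact 95% Poisson interval 15.5 to 18.1). Intergenic sequence held 13.8 per Mb, near introns 49.6 and promoters 137.8. From 2 to 5 kb of the TSS the density was 26.5 per Mb (23.5 to 29.6), from 5 to 10 kb 19.7, from 10 to 20 kb 12.7 and from 20 to 50 kb 10.02. Farther than 50 kb there were 3 summits in 4.48 Mb, or 0.670 per Mb (0.138 to 1.96), and 2.47 per Mb (0.509 to 7.22) without the 5 genes with the most eligible sequence. The median distance to the TSS was 5350 bp in the optimal list, and 5209, 5472 and 5244 bp in replicates 1, 2 and 3. The most distant was 61705 bp away.

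They were densest in introns of 5 to 20 kb and sparse next to exons. The shortest intron around a summit had a median length of 14039 bp, with no such median taken over eligible sequence. Introns under 5 kb held 14.7% of summits and 21.3% of eligible sequence, and those over 50 kb held 9.13% and 17.5%. Density was 11.6 per Mb in introns under 5 kb, 22.5 both in those of 5 to 10 kb and of 10 to 20 kb, 18.4 in those of 20 to 50 kb and 8.75 in longer ones, which became 16.3 (12.4 to 21.0) without those 5 genes. Within 500 bp of an exon there were 54 summits, 6.77 per Mb (5.09 to 8.83), against 23.7 per Mb (20.9 to 26.7) at 2 to 5 kb. The intervals of these 2 densities do not overlap.

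**Figure D2:**
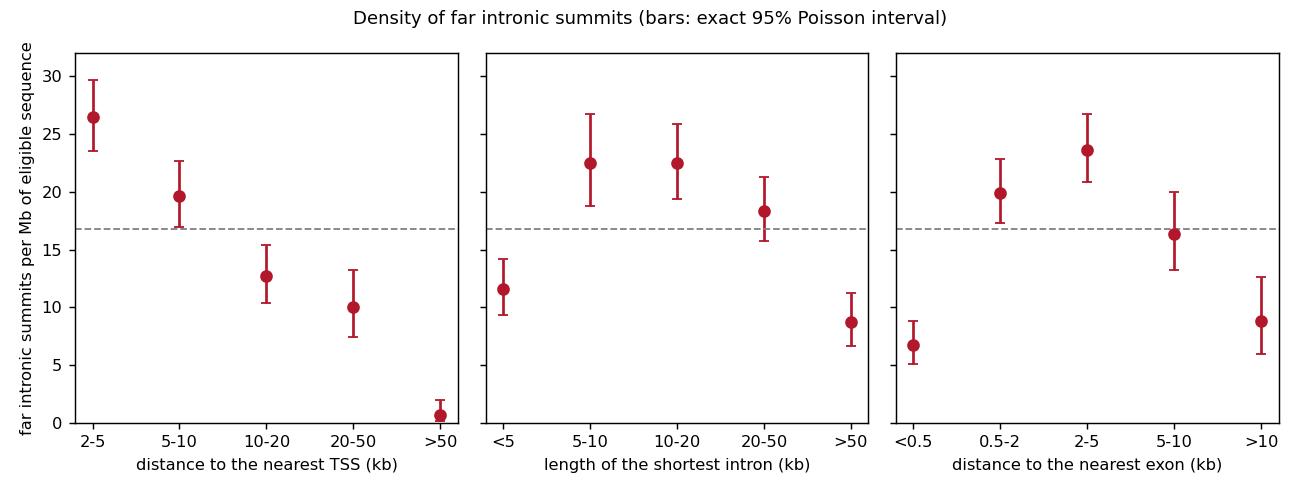
Density of far intronic summits (per Mb of eligible sequence) by distance to the nearest TSS, length of the shortest intron and distance to the nearest exon (kb). Points are the optimal list, bars exact 95% Poisson intervals, and the dashed line the 16.8 per Mb over all eligible sequence; density falls from 26.5 per Mb at 2 to 5 kb from the TSS to 0.670 beyond 50 kb.

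First introns held most of them. Of the 646 summits 402 (62.2%) lay in the first intron of at least 1 transcript, which makes up 37.5% of eligible sequence, and the share was 61.8% ± 0.859 in the replicates (SD, n = 3). That is 27.8 per Mb in first introns (25.2 to 30.7) and 10.1 elsewhere (8.89 to 11.5). The difference was also there at equal distance from the TSS. It was 37.0 against 14.7 per Mb at 2 to 5 kb, 25.4 against 15.2 at 5 to 10 kb and 18.2 against 9.85 at 10 to 20 kb. Farther away it was 15.5 against 3.85, which was not recomputed without the 5 genes with the most eligible sequence. Those genes held no summit, and without them eligible sequence beyond 50 kb fell from 4.48 to 1.21 Mb. For 494 summits (76.5%) the nearest TSS belonged to the host gene, and 622 lay in 1 gene only. Another far intronic summit was within 1 kb of 68 of them and within 5 kb of 215 (33.3%).

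Among chromosome arms X was highest and 3R lowest of the large ones. X held 22.5 summits per Mb of eligible sequence (19.1 to 26.3), 2L 17.9, 3L 16.4, 2R 15.9 and 3R 13.5 (11.4 to 15.9). In replicates 1, 2 and 3 the density on X was 19.7, 24.04 and 21.2 per Mb, and on 3R it was 11.3, 13.7 and 12.4. The values of these 2 arms did not overlap between replicates. Without the 5 genes with the most eligible sequence, which lie near centromeres and held 0 summits, 3R had 17.5 per Mb (14.7 to 20.5), 3L 17.3 and 2R 17.7, while X and 2L were as before; in the replicates 3R then had 14.6, 17.7 and 16.02. Chromosome 4 held 0 summits in 0.294 Mb, with an exact 95% Poisson interval of 0 to 12.6 per Mb.

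A few summits lay at the start of a non-coding gene, which the rule did not use. Of the 646, 14 (2.17%, exact 95% binomial interval 1.19 to 3.61) were within 500 bp of the TSS of a non-coding gene, with 2.46%, 2.13% and 2.51% in replicates 1, 2 and 3. The closest was 50 bp from lncRNA:CR44331, in puc, which encodes a phosphatase that restrains JNK signalling (rank 556). The next closest were 79 bp from lncRNA:CR43399 in ena, an actin regulator (rank 907), 110 bp from lncRNA:CR45888 in dlp, a glypican gene of Wnt and Hedgehog signalling (rank 671), 133 bp from lncRNA:CR45808 in Hipk, a protein kinase gene (rank 1660), and 141 bp from lncRNA:CR46036 in osa, a subunit of the Brahma remodelling complex (rank 449). All 5, named after their values were seen, were matched in all 3 replicates. The share of eligible sequence within 500 bp of such a TSS is not given, so the 2.17% is a description only.

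The 646 summits lay in 397 host genes, and many hosts held several. There were 253 hosts with 1 summit, 71 with 2, 43 with 3 and 30 with 4 or more, and 403 summits lay in hosts with at least 2. Of the 2366 protein-coding genes with at least 1 kb of eligible sequence 393 were hosts (16.6%). The share of genes that were hosts rose with length, from 6.18% of genes with 1 to 5 kb of eligible sequence to 15.3%, 21.3%, 29.6% and then 42.2% of those with over 50 kb. The median was 18339 bp in hosts and 5661 bp in the others. Hosts had an optimal summit at their own promoter more often than other genes, 160 of 397 (40.3%) against 430 of 1973 (21.8%). The same order held in each length group, from 49.2% against 23.1% in the shortest to 35.4% against 14.6% in the longest.

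The gene with the most far intronic summits was sbb (FBgn0285917; 2R, 18278198 to 18357296), which encodes the corepressor Scribbler. It held 9, of which 6 were matched in all 3 replicates, and 7, 10 and 9 in the replicates' own lists. All 9 lay in a first intron, and the highest ranked 325. Of the 9, 2 neighbouring peaks matched the same peak of each replicate. Next was kirre (X, 2740384 to 3134532), for an adhesion protein of muscle founder cells, with 8 summits over 266684 bp of eligible sequence. The cofactor gene ush held 7 (5, 5 and 7 in the replicates) and tara, a regulator of the cell cycle and of homeotic genes, 7 (6, 6 and 5).

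Raf held 6 summits in 20136 bp of eligible sequence, between 2240 and 11105 bp from its TSS, and all 6 were matched in all 3 replicates. Their ranks ran from 76 to 2069, and each replicate's list also had 6. Hr4 held 5, all matched, with 5 in each replicate. apt, a transcription factor gene of the head and trachea, held 6, of which 4 were matched. The densest of the 10 hosts with the most summits was CHES-1-like, with 5 summits in 7873 bp, or 6.35 per 10 kb, and 4, 4 and 5 in the replicates. shn, a zinc finger factor of the Dpp pathway, held 5 with 4 matched, and Eip75B, an ecdysone-induced nuclear receptor gene, 5 with 3 matched.

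Of the 40 genes with the most eligible sequence 24 had no far intronic summit and 16 were hosts. Among all genes with over 50 kb of eligible sequence 42.2% were hosts, and among those with at least 1 kb 16.6%. The 24 without a summit included the 5 longest, named after their values were seen. These were Myo81F with 1784798 bp of eligible sequence, Pzl with 629607 bp, lovit, DIP-lambda and CG17684. These 5 lie next to the centromeres, in repeat-rich sequence.

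Far intronic summits per Mb ranged widely between gene lists, from chromatin and signalling genes at the upper end to genes of neuronal identity and synapses at the lower. Densities are given beside the 16.8 per Mb and the 16.6% of hosts over all genes with at least 1 kb of eligible sequence, as a description without a test. The share of hosts rises with eligible length, and the 16.6% was not matched to the lists for length. The median number of summits per gene with at least 1 kb was 1 in the ecdysone list, 0.5 in the Polycomb and trithorax list and 0 in the others. Of 14 genes of the Polycomb and trithorax groups and of chromatin, 7 were hosts, with 12 summits; their density was 78.1 per Mb, with an exact Poisson 95% interval of 40.3 to 136.4, and 71.6 ± 6.51 in the replicates (SD, n = 3). The highest were in trx, a histone methyltransferase gene (rank 370; 524, 355 and 352 in the replicates), osa (449), Psc, of Polycomb repressive complex 1 (451), and kis, a chromodomain remodeller gene (1465). Among growth, stress and metabolism genes 9 of 19 were hosts, with 17 summits or 72.6 per Mb (42.3 to 116.3). Without tara, which held 7 of the 17, it was 47.8 per Mb (22.9 to 88.0). The highest lay in REPTOR, a transcription factor gene downstream of TOR (545), puc (556), tara (763) and sr, a zinc finger factor gene of tendon cells (920).

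Of 20 ecdysone response genes 11 were hosts, with 28 summits or 48.3 per Mb (32.1 to 69.7). The replicates' lists held 19, 31 and 30, with replicate 1 the lowest. Hr4, Hr3, ImpL2, for a secreted protein that binds insulin-like peptides (336), and Eip75B (666) led this list, and EcR, the ecdysone receptor gene itself and named after its value was seen, held 1 summit (864). Receptor tyrosine kinase and Ras pathway genes had 11 hosts of 25 and 21 summits, or 43.1 per Mb (26.7 to 65.9), of which Raf held 6; without it the density was 32.1 per Mb (18.0 to 52.9). Ligands and antagonists were among them, as aos and vn, for a ligand of the epidermal growth factor receptor (932), and so were Raf and aop, for an Ets repressor at the end of the pathway (567).

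Of 32 genes of the Wnt, Hedgehog, Dpp and Notch pathways 12 were hosts, with 26 summits or 39.8 per Mb (26.0 to 58.2). The receptor genes fz (239) and N, for Notch (483), were hosts, and so were mam, for a coactivator of Notch (374), and Dad, for an inhibitory Smad (424). In N the summit lay 10599 bp from the TSS and ranked 486, 593 and 471 in the replicates. The 3 replicates placed it alike.

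Of 24 genes of the trachea and posterior spiracles, where Ems is known to act, 8 were hosts, with 12 summits or 30.3 per Mb (15.6 to 52.9). Among the highest were those in rib, a transcription factor gene of tracheal migration (700), ct, a homeobox gene (1155), and bnl, for the FGF ligand of tracheal branching (2647). Head gap, gap, pair-rule and Hox genes had 5 hosts of 17, with 11 summits or 23.4 per Mb (11.7 to 41.8). These were in Antp (4 summits, the best ranked 1414), hth (4, none matched in all 3), cad and knrl, among others. The list of homeobox genes outside the Hox clusters also holds hth, cad and, despite its name, the Hox gene Antp. It had 6 hosts of 53 and 13 summits, or 15.1 per Mb (8.03 to 25.8). Without Antp it had 9 summits, or 11.6 per Mb (5.31 to 22.0). Most summits of these 2 lists, with Antp counted, are thus the same. Lim1, for a LIM homeodomain protein, held 1 (1533; 1796, 1804 and 1355 in the replicates). The intervals of these 3 lists include 16.8 per Mb, and that of neuroblast and neuronal identity genes, which also touch the roles of Ems, lay below it.

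Axon guidance and neural adhesion genes had 15 hosts of 49 and 33 summits, or 15.5 per Mb (10.6 to 21.7). Among them kirre (298) was highest, before sli, the ligand that repels axons from the midline (769), Fas3, an adhesion gene (821), and NetA, a netrin gene (1410). Genes of the cytoskeleton, muscle and adhesion had 6 hosts of 36 and 8 summits, or 12.2 per Mb, with ena (907), Dys, for dystrophin (996), and ths, for an FGF ligand (2239), among the highest. Neuroblast and neuronal identity genes had 6 hosts of 34, with 8 summits in 1.13 Mb (interval 3.07 to 14.0 per Mb), among them grh (737), mamo (806), brat (1397) and ttk (1841). Ion channel and synapse genes had 2 hosts of 40, Ca-beta (2323) and Ih (3171), with 2 summits or 1.87 per Mb (0.226 to 6.74), and 3, 2 and 3 summits in the replicates. Of the 12 lists, those of neuroblast and neuronal identity and of ion channels and synapses had intervals wholly below 16.8 per Mb.

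**Figure D3:**
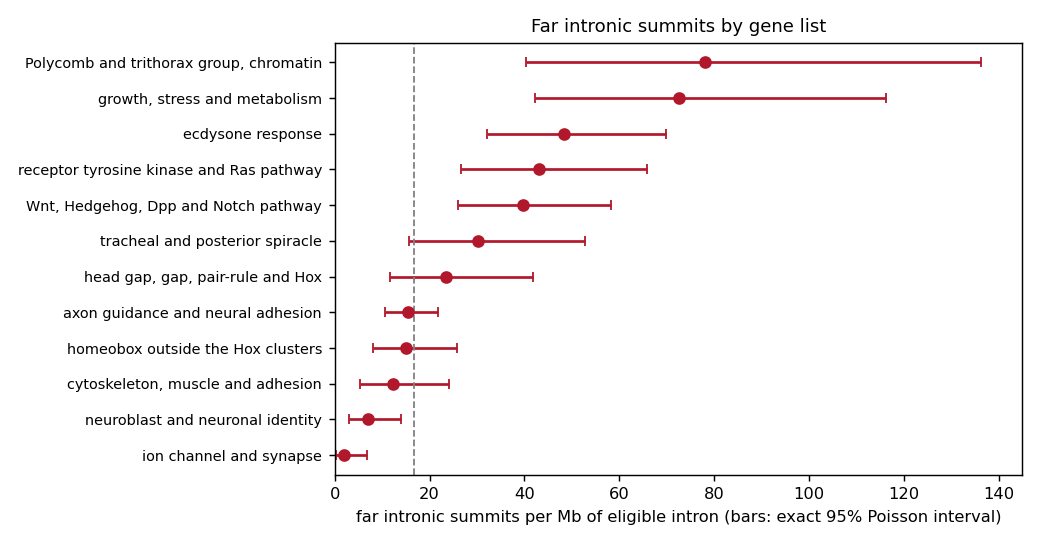
Far intronic summits per Mb of eligible intron in 12 gene lists. Points are the optimal list, bars exact 95% Poisson intervals that cover counting error only, and the dashed line the 16.8 per Mb over all genes; values run from 1.87 for ion channels and synapses to 78.1 for the Polycomb and trithorax list.

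Summits lay in a dip of GC content. Within 100 bp of far intronic summits 36.1% of bases were G or C, against 41.5% in flanks of the same length centred 500 bp away. In replicates 1, 2 and 3 the summit value was 37.6%, 35.8% and 36.5%. In windows of 51 bp GC was 33.4% at the summit, rose to 44.6% at 250 bp and was 40.2% at 1000 bp. Near intronic summits had 36.2%, intergenic 36.9% and promoter summits 38.2%. GC content thus moves with the comparisons of summits with flanks and with promoter summits, and its part in them was not tested.

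Sequences of 6 bases (6-mers, with reverse complements joined) were counted within 100 bp of each summit and in 1 flank of the same locus. Of all 6-mers, 194 (9.33%) were more frequent at far intronic summits and 197 (9.47%) less frequent. They were called at adjusted p under 0.05 in the exact McNemar test with the same direction in each replicate. By the adjusted p alone 392 passed, so the condition on direction removed almost none. The replicate lists share most peaks with the optimal list, so the same direction in them is not independent support. Of the 194 more frequent ones 169 had at least 4 A or T bases, and of the 197 less frequent ones 154 had at most 2. The median ratio was 0.494 over 6-mers with 0 A or T bases, 0.554 with 1, 0.711 with 2, 0.892 with 3 and 1.15 with 4. ACCTAT was in 8.05% of summit windows against 2.71% of flanks (ratio 2.97). AGTGTA was in 19.2% against 6.58% (ratio 2.92; 3.42, 2.61 and 2.73 in replicates 1, 2 and 3), ACACTG in 18.4% against 6.42% (2.87), ACTGAG in 15.5% against 5.42% (2.86) and CAGTGC in 21.5% against 7.82% (2.75; 2.17, 2.54 and 2.55 in the replicates). The adjusted p of CAGTGC was 7.48e-09 and that of ACCTAT 0.000690, by the exact McNemar test. The last 4 share the bases AGT, or ACT on the other strand. The lowest called ratios belonged to CGTCCC (0.146), CGGACG (0.150), CCGTCC (0.208), CGGATC (0.217) and CCCGGC (0.226). In replicates 1, 2 and 3 the ratio of CGTCCC was 0.710, 0.233 and 0.195, that of CGGACG 0.324, 0.286 and 0.35 and that of CCGTCC 0.579, 0.259 and 0.381. CGGATC had 0.6, 0.264 and 0.444 and CCCGGC 0.538, 0.296 and 0.377, so every replicate's ratio was nearer to 1 than that of the optimal list.

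None of the homeodomain-type motifs passed the test against flanks. TAATTA, the homeodomain palindrome, was within 100 bp of 102 of the 646 summits (15.8%) and in 13.9% of flanks, which gives 1.13 as the ratio (adjusted p = 0.720 over all 6-mers, exact McNemar test). The ratio was 1.08, 1.14 and 1.13 in the replicates, while the median ratio of all 36 6-mers made only of A and T was 1.40. TAATGA had a ratio of 0.972, TAATCC, the core for Bicoid and Orthodenticle, 1.03, CAATTA, the Engrailed type core, 0.957, TGATTA, the Extradenticle and Hox type, 1.24, and TTTATG, the Caudal and Abdominal-B type, 0.938; none was called. A p that misses the threshold does not show that Ems is absent there.

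Among other fixed motifs AGATAA, the GATA factor core, was called more frequent (17.5% against 10.3%, ratio 1.70; 1.41, 1.38 and 1.64 in the replicates; exact McNemar test, adjusted p = 0.00989). The median ratio of 6-mers with 5 A or T bases was 1.38, close to the values of replicates 1 and 2. TATAAA, whose ratio of 1.46 was called as well (adjusted p = 0.000338, exact McNemar test), stood near the 1.40 of 6-mers made only of A and T. CAGCTG, an E-box, was called less frequent (0.569, exact test, adjusted p = 0.00425). Its ratio was 0.646, 0.723 and 0.628 in the replicates, near the median of 0.711 for 6-mers with 2 A or T bases. CACACA was called less frequent as well (0.757, exact test, adjusted p = 0.0356), and its log2 ratio was 0.0310 with flanks 1000 bp away. CAGGTA, bound by Zelda, which opens chromatin in the early embryo, had a ratio of 1.48, GAGAGA, bound by GAGA factor, 0.930, TAAACA, the Forkhead core, 1.29, AACAAT, the Sox core, 1.18, and GGAAGT, the Ets core, 1.15; none of these passed the test.

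Compared with promoter summits, far intronic summits less often held several elements of housekeeping promoters. Of all 6-mers 97 (4.66%) were more frequent and 159 (7.64%) less frequent at far intronic summits by the two-sided Fisher exact test. ATCGAT was in 3.25% of far intronic windows and 20.1% of promoter windows (exact test, adjusted p = 2.32e-27), CGATAG in 4.64% and 21.1%, and TATCGA in 8.20% and 25.3%. They are parts of elements bound by the promoter factors DREF and BEAF-32. The whole DREF element TATCGATA was in 0.155% of far intronic and 9.51% of promoter windows, and GTCACACT, the core of promoter motif 1, in 0.464% and 4.87%. Also lower were CGGACG (0.464% against 3.08%), TCGCGA (0.619% against 3.31%), CAGCCC (2.17% against 8.61%) and CAGCTG (5.42% against 14.9%).

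ACTGAG was higher at far intronic than at promoter summits (15.5% against 7.48%, ratio 2.07; exact test, adjusted p = 1.49e-06), and so were AGTGTA (19.2% against 11.5%) and CAGTGC (21.5% against 14.7%). Other calls were AGCCTC with a ratio of 2.41, CCCCTC with 2.38, GCCTCC with 2.13 and GAACCC with 2.10. Against far intronic flanks their ratios were 1.08, 0.457, 0.629 and 1.01, in the same order. CCCCTC was called less frequent there (exact McNemar test, adjusted p = 0.000690), and the others were not called. Promoter summits had ratios of 0.357, 0.456, 0.198 and 0.549 to their own flanks. Within 50 bp of summits the log2 ratio of CCCCTC at far intronic against promoter summits was -0.00597. ACACTG was in 18.4% of far intronic and 21.8% of promoter windows and was not called (exact test, adjusted p = 0.227). It is a part of promoter motif 1 but also, on the other strand, of core 2 (CAGTGTA), so its share does not measure motif 1 alone. AGATAA was in 17.5% and 11.2% (exact test, adjusted p = 0.00141).

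No 6-mer separated far intronic from near intronic or from intergenic summits. In both comparisons 0 (0.0%) passed the exact Fisher test in either direction, with 87 and 114 at an unadjusted p under 0.05. The lowest adjusted p was 0.182 for ACTGAG, in 15.5% of far and 8.13% of near intronic windows, and 0.602 against intergenic summits. Of the 194 6-mers more frequent at far intronic summits than in their flanks, 56 were called in the same way at intergenic summits, which had 82 such calls, and 67 at near intronic summits, which had 89. Over all 6-mers the log2 ratios to flanks correlated with Pearson's r of 0.714 for near intronic, 0.710 for intergenic and 0.633 for promoter summits. These are descriptions across 6-mers, which share bases and composition.

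**Figure D4:**
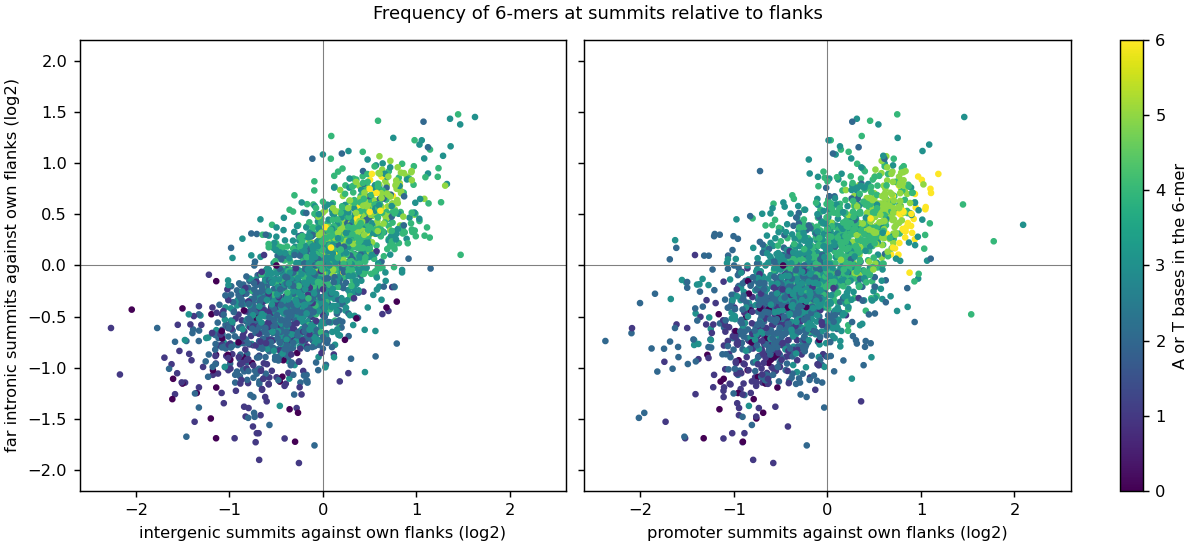
Log2 ratio of the share of windows holding each 6-mer, at summits against flanks of the same class, for far intronic (vertical) against intergenic and promoter summits (horizontal), with 0.5 percentage points added to both shares. Each point is a 6-mer, coloured by its number of A or T bases; the clouds lie along the diagonal in both panels, with r of 0.710 and 0.633, and A/T-rich 6-mers lie in the upper right of each.

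The 6-mers with the highest ratios belonged to a few longer sequences. The 4 cores named at the start were put together from them and from the bases around their sites after these results were seen, so their values are a description without a test. Core 1 can overlap core 2 or core 3 by 5 bases, as in the CTCAGTGTA of the aos window. CTCAGTG was within 100 bp of 10.4% of far intronic summits and in 1.24% of flanks, CAGTGTA of 10.8% and 1.08%, CAGTGCA of 13.8% and 2.94%, and CCACTGT of 11.1% and 4.10%. In the same order promoter summits held them in 3.55%, 3.88%, 4.40% and 6.58%, near intronic summits in 5.08%, 7.52%, 11.6% and 13.01%, and intergenic summits in 11.6%, 12.5%, 13.8% and 7.89%. Over 664860 windows of 201 bp along the arms, the shares were 1.84%, 1.80%, 3.17% and 2.35%.

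Sites of the cores near summits had a preferred direction. The strand on which a core is written was set after its sites were seen: CCACTGT is the complement of ACAGTGG, and so the bases CAGTG shared by all 4 cores read away from the summit in most sites of cores 1 to 3 and towards it in most sites of core 4. Within 150 bp of far intronic summits 84 of 94 sites of CTCAGTG (89.4%) had their 3′ end on the side away from the summit, as had 101 of 114 of CAGTGTA (88.6%), 106 of 130 of CAGTGCA (81.5%) and 113 of 131 of CCACTGT (86.3%). In the replicates' lists these shares were 89.6% ± 2.47, 87.9% ± 3.29, 81.1% ± 5.25 and 83.0% ± 2.24 (SD, n = 3). Sites 500 to 1000 bp away pointed either way about equally, with 46.9%, 48.1%, 48.1% and 48.8% outward. Within 150 bp of intergenic summits the shares were 86.8%, 88.1%, 78.1% and 85.9%, and of near intronic summits 87.8%, 85.7%, 68.8% and 86.4%. The median distance of sites within 150 bp was 72.5, 85.5, 78.5 and 75.0 bp for the 4 cores, and 50 of 94 sites of core 1, 55 of 114 of core 2, 73 of 130 of core 3 and 58 of 131 of core 4 were at 50 to 100 bp.

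Outward sites of CTCAGTG had a common context. With the core's first base as 1, T stood at positions -5, -4 and -3 in 88.1%, 90.5% and 86.9% of 84 sites. C or T stood at position 8 in 51.2% and 42.9%, and A at position 9 in 65.5%. C or T and then A after CTCAGTG completes CAGTGCA or CAGTGTA, so positions 8 and 9 partly restate the overlap of the cores. At promoter summits T stood at positions -5, -4 and -3 in 63.8%, 72.5% and 69.6% of 69 outward sites. There C and T each stood at position 8 in 43.5%, and A at position 9 in 56.5%. The Gug window above shows a run of T before CAGTGTA on its right side, 5′ of the core as read.

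Of the 646 far intronic summits 266 (41.2%, exact 95% binomial interval 37.4 to 45.1) had at least 1 outward core within 150 bp. The share was 39.1% ± 1.80 in the replicates (SD, n = 3), and it was 6.04% and 6.35% around points 500 bp to the lower and higher side. Inward cores were near 8.82% of summits and near 5.88% and 6.35% of those points. Near intronic summits had an outward core in 35.6%, intergenic summits in 39.0% and promoter summits in 15.2%. Outward cores stood on both sides of 68 far intronic summits (10.5%; 10.1% ± 0.311 in the replicates), against 1 and 0 of 646 points in the flanks. The same was seen at 7.93% of near intronic, 10.7% of intergenic and 2.18% of promoter summits. The nearest outward pair was spaced by a median of 160 bp, with quartiles of 147.75 and 174 bp.

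**Figure D5:**
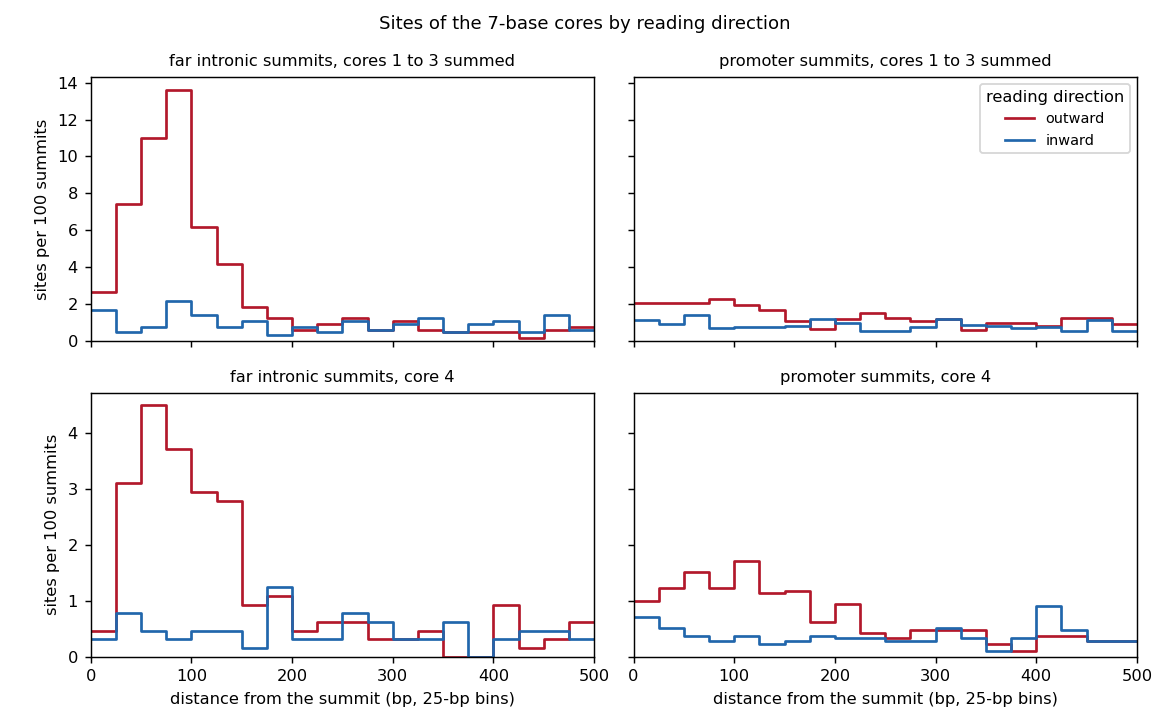
Sites of cores 1 to 3, summed, and of core 4 per 100 summits, by distance from far intronic and promoter summits (bp, in 25-bp bins); red lines are sites that read away from the summit, blue lines sites that read towards it. At far intronic summits the outward lines have their highest points between 50 and 100 bp, and beyond about 200 bp the lines of both directions run together.

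The pattern was found among strong and weak peaks. In 4 groups of the 646 by signal, from the highest, 48.4%, 44.4%, 32.9% and 38.9% had an outward core. The 68 summits with outward cores on both sides had a median rank of 1763.5, against 2124 for the others, and 47 of them (69.1%) were matched in all 3 replicates, against 59.7%. They lay in 65 host genes, 60.3% of them in a first intron. Among the genes with several summits, kirre had 3 of this kind, ranked 298, 1425 and 1610, and Raf had no core within 100 bp of any of its 6 summits. The proteins that bind these cores, and whether they act at these sites, were not tested.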

How the data were processed

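According to the deposited notes, peaks were called for single replicates, and for their pooled alignments, against a control, and the optimal list was derived from these. Aligner and peak caller: not given in the sources used here. The lists are in the narrowPeak format on dm6: the authors deposited a peak signal, used here for ranks within 1 list at a time, −log10 q, used to count entries with a q-value under 0.01 (3527, 4276 and 4599 in replicates 1, 2 and 3, of 30000 each), and the summit offset in bp. Coordinates are printed 1-based.

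Summits were placed on the Ensembl annotation, release 115, of Release 6, with the exons of transposable elements counted as exons. Windows had 201 bp; flanks were centred 500 bp away. Ratios use the mean of both flanks, and the exact McNemar test 1 flank drawn per summit. Adjustment was by Benjamini-Hochberg over all 6-mers or 6 class tests, at 0.05. The tests were tested on simulated data. The 3 replicates allow no exact sign-flip p below 0.25, so replicates are given as values. Gene-list densities divide summits by the eligible sequence of the listed genes; 6 listed genes were not found. Named genes are the hosts of the 25 highest far intronic summits matched in all 3 replicates, the 10 hosts with the most summits and up to 4 hosts of the highest summits per list, of which 1 is not reported here; named 6-mers are 24 motifs and the 5 most and least frequent called ones. The members, lists and motifs were chosen with earlier results of these data known. Python 3.11.15, numpy 2.4.6, pandas 2.3.3, scipy 1.17.1 and matplotlib 3.10.9 were used. Alternatives covered the TSS distance, the set of TSSs, the summit, windows and flanks, the matching rule, the higher-signal peaks and each replicate left out. The dm3 lists were not used.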

Additional observations from a re-analysis of the deposited data

How the results depend on the processing

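The number of far intronic summits was 348 with a limit of 5000 bp, 304 among higher-signal peaks, and 426 to 481 among peaks matched in 2 replicates, leaving out each in turn; with a limit of 1000 bp (902), all TSSs (611) or peak midpoints (646) it stayed within 1.5 times. The share matched was 99.2% against the whole list of each replicate, where differences from near intronic and promoter summits were 0.242 and -0.0641 points, and 65.9% to 74.5% without single replicates. Leaving replicates out gave matched-share differences of -9.26 to -5.01 and -6.07 to -4.01 points, of which those without replicate 1 did not pass the test, and higher-signal differences of -5.85 to -3.18 and -3.14 to -1.17 points. Against flanks, more and less frequent 6-mers numbered 107 and 124 within 50 bp, 77 and 32 within 200 bp, 38 and 13 among higher-signal peaks, 124 and 89 with flanks 1000 bp away, and 72 to 111 and 53 to 77 without single replicates. Chosen after seeing the data, summits with no other optimal summit within 1 kb gave 138 and 116, the flank of lower coordinate 171 and 156, and that of higher coordinate 209 and 205. Exons without transposable elements, also chosen after seeing the data, left 646 summits. The densities without the 5 genes with the most eligible sequence, and those of gene lists without the host with the most summits, were likewise chosen after seeing the data; over all eligible sequence the former was 18.4 per Mb. Against promoters the counts were 51 and 119 within 50 bp, 223 and 223 within 200 bp, 11 and 16 among higher-signal peaks, and 29 to 40 and 59 to 83 without single replicates. CACACA against flanks 1000 bp away (log2 0.0310) and CCCCTC against promoters within 50 bp (log2 -0.00597) changed direction. GC was 33.9% within 50 bp and 39.6% within 200 bp. Non-coding TSSs were within 1000 bp of 3.41%, and within 500 bp of 2.49% to 2.58% without single replicates. Fewer summits entered the counts of higher-signal peaks and those without a replicate; other causes were not tested. No paired analysis was possible because the study has 1 group.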
